A study of Rattus norvegicus with 32 samples.

Results

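The question here was whether the response of the rat brainstem to ozone depended on the adrenal glands, read as an ozone by surgery interaction in gene expression. All 16 brainstem libraries of the series were used, chosen by their tissue label, out of 32 libraries in all. For each gene the interaction was the ozone effect in adrenalectomized rats minus the ozone effect in sham-operated rats, so a negative value means that the ozone effect was lower after adrenalectomy. Messenger RNA was sequenced from 13-week-old rats of the Wistar Kyoto strain, which has normal blood pressure. The 4 groups of 4 libraries were sham-operated rats in filtered air (sham air), sham-operated rats in ozone (sham ozone), rats with both adrenal glands removed (total bilateral adrenalectomy, ADREX) in filtered air (ADREX air), and ADREX rats in ozone (ADREX ozone). Exposure was of the whole body at 0.8 ppm for 4 hours, and brainstem was frozen immediately afterwards, so every group shared the strain, the age, an operation and a stay in the exposure chamber. Libraries carry the numbers of the labels, 1 to 4 for sham air, 17 to 20 for sham ozone, 65 to 68 for ADREX air and 81 to 84 for ADREX ozone. The labels do not say whether each library came from a separate rat, so the p-values measure the spread between libraries.

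The adrenal cortex secretes corticosterone, the main glucocorticoid of the rat, and the adrenal medulla secretes adrenaline. Corticosterone enters the brain, binds the glucocorticoid receptor (Nr3c1) and the mineralocorticoid receptor (Nr3c2), and the bound receptors act as transcription factors at response elements in DNA. Inhaled ozone reacts in the airway and is known as a stressor that raises circulating stress hormones, and the brainstem holds the nuclei that receive sensory input from the airway.

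Brainstem libraries held 6.94 to 12.4 M reads (M stands for 1e6). Summed over the hindbrain Hox genes they had 623 to 1837 normalized counts, against 0 to 31.0 in the hypothalamus libraries, and the glycine transporter Slc6a5 ranged from 3437 to 4465, against 36.4 to 144. Markers of neighbouring tissue varied: the cerebellar granule cell gene Gabra6 ranged from 49.6 to 697 normalized counts, and transthyretin (Ttr), made by choroid plexus and liver, from 11.6 to 1753. The library ADREX ozone 81 stood apart, with a median absolute deviation from its group mean of 0.336 on the log2 scale against 0.0908 to 0.175 in the other 15. Sham ozone 18 had a summed level of 21 liver transcripts of 32640 normalized counts, against 340 to 11450 in the other libraries.

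In sham rats ozone raised a set of genes in the brainstem that it did not raise detectably in ADREX rats, and lowered a smaller set. The interaction passed the threshold, a limma adjusted p under 0.05, for 29 of 14408 genes tested (0.201%), of which 22 were negative (0.153%) and 7 positive (0.0486%). At an unadjusted p under 0.05 there were 763 genes, where 720.4 would be expected if no gene differed. Among the 22 negative genes the median ozone effect was 1.40 in sham rats and -0.16 in ADREX rats, and among the 7 positive genes it was -0.94 and 0.22, all on the log2(value + 1) scale. All 4 sham ozone libraries lay above the other 12 libraries for 22 of the 22 negative genes and below them for 6 of the 7 positive genes, a separation in either direction that 2.28% of all genes tested showed. The genes were picked by the interaction in the same libraries, which favours such a separation, so it describes the calls and is not separate evidence. ADREX ozone and ADREX air libraries overlapped for 20 of the 22 and for 4 of the 7. The share of all genes with such an overlap was not computed, so these counts are no result about the ADREX response. For 28 of the 29 the ozone effect in sham rats also passed on its own, but that effect and the interaction share the sham libraries.

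Each of the parts of the contrast was tested in the same fit. Ozone against air passed for 141 genes in sham rats (0.979%, 84 higher and 57 lower in ozone). That count was 272 without ADREX ozone 81, and it was 73 without sham ozone 20, 75 without sham ozone 17, 79 without sham ozone 19, 90 without sham air 1 and 93 without sham air 3. Ozone against air passed for 0 genes in ADREX rats with limma (851 at an unadjusted p under 0.05, 720.4 expected if no gene differed). With edgeR it passed for 0 (874 unadjusted) and with DESeq2 for 1 (883 unadjusted). The limma unadjusted count ran from 426 without ADREX air 65 to 1464 without ADREX ozone 82. The 0 calls thus do not show that ADREX rats had no ozone response. ADREX against sham passed for 0 genes in air (545 unadjusted, 720.4 expected if no gene differed) and for 352 in ozone, both with limma. Among the 29 genes the smallest adjusted p of the ozone effect in ADREX rats was 0.358, for Rn50_14_0474.1. The ADREX effect of the 22 negative genes ranged from -0.88 to 0.43 on the log2 scale and was below 0 in 18 of them.

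**Figure D1:**
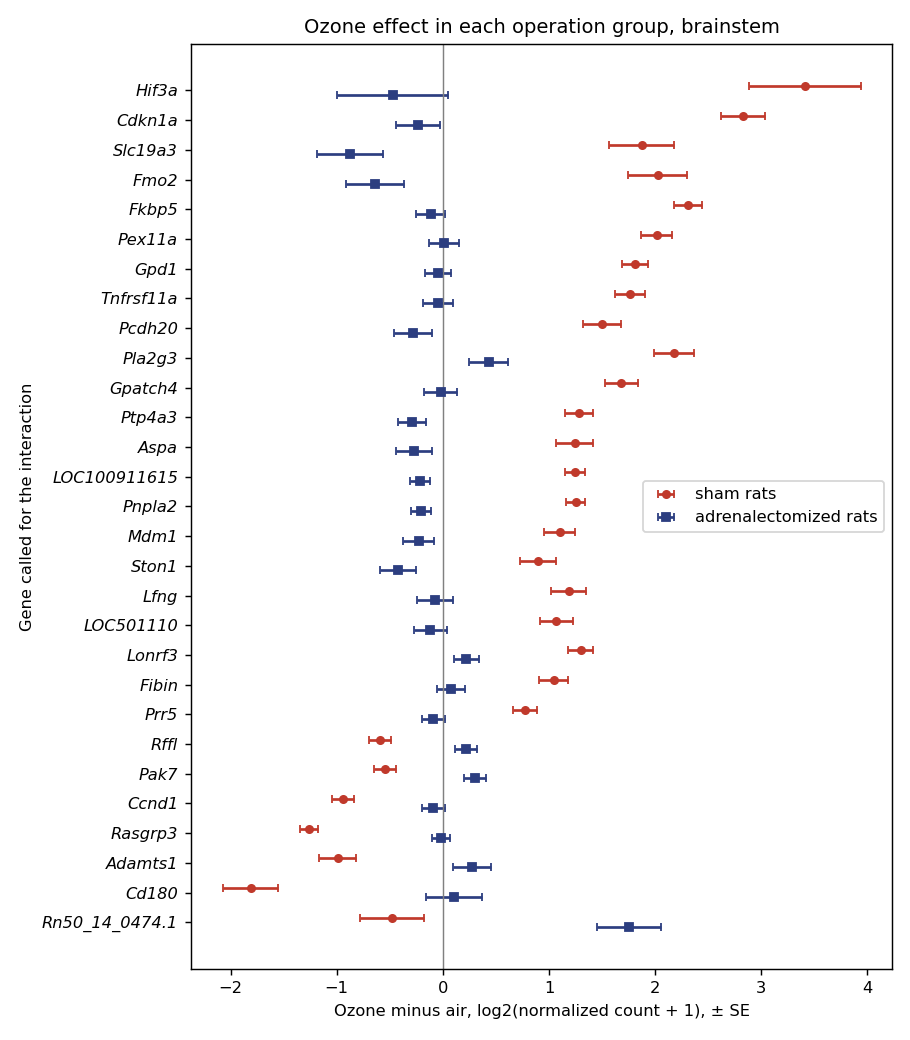
Ozone minus air on the log2(normalized count + 1) scale, with its standard error, in sham rats (circles) and ADREX rats (squares), for the 29 genes called for the interaction, ordered from the most negative to the most positive interaction. The ADREX values of the 22 negative genes lie between -0.88 and 0.43, while the sham values of the same genes are all above 0.

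Fkbp5 encodes a co-chaperone that binds the glucocorticoid receptor complex and is itself induced by the receptor. Its normalized counts were 238, 281, 234 and 304 in sham air and 1338, 1146, 1410 and 1338 in sham ozone. In ADREX rats they were 242, 193, 263 and 202 in air and 235, 191, 231 and 173 in ozone. The 4 sham ozone libraries were far above the other 12, and the ADREX groups overlapped. Fkbp5 rose by 2.31 ± 0.13 (SE, log2, n = 4 per group) in sham rats, the ADREX effect was -0.12 ± 0.13, and the interaction was -2.42 (95% interval -2.82 to -2.02, limma adjusted p = 6.34e-06), the smallest p of all genes. In bulk tissue, less RNA per cell and fewer cells that make it cannot be told apart, here or for the genes below.

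Cdkn1a encodes p21, an inhibitor of cyclin-dependent kinases that both p53 and the glucocorticoid receptor induce. The sham air libraries had 164, 143, 225 and 168 normalized counts and the sham ozone libraries 1229, 1016, 1478 and 1231. ADREX air libraries had 119, 87.8, 128 and 110 and ADREX ozone libraries 58.6, 106, 97.3 and 129. Every sham ozone library thus exceeded every other library, and the lowest of all was ADREX ozone 81. The sham effect was 2.82 ± 0.21 on the log2 scale and the interaction -3.06 ± 0.29 (limma adjusted p = 3.12e-05).

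Hif3a, a subunit of the hypoxia-inducible factor family and a known glucocorticoid target, had the most negative interaction and the lowest counts. It had 3.23, 19.8, 3.11 and 9.56 normalized counts in sham air and 83.98, 48.6, 110 and 104 in sham ozone. The 8 ADREX libraries had 1.75 to 9.09 normalized counts. Sham ozone lay above all other libraries, while the 4 sham air libraries differed several-fold among themselves. The interaction was -3.88 ± 0.74 (limma adjusted p = 0.0408), and because the scale adds 1 to each value it understates the fold of a gene this low. The call was lost with edgeR (adjusted p = 0.0851), with a pseudocount of 0.5 (limma adjusted p = 0.0525), with no filter on low values (0.0551) and when any of 12 of the 16 libraries was left out (adjusted p 0.0536 to 0.127).

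**Figure D2:**
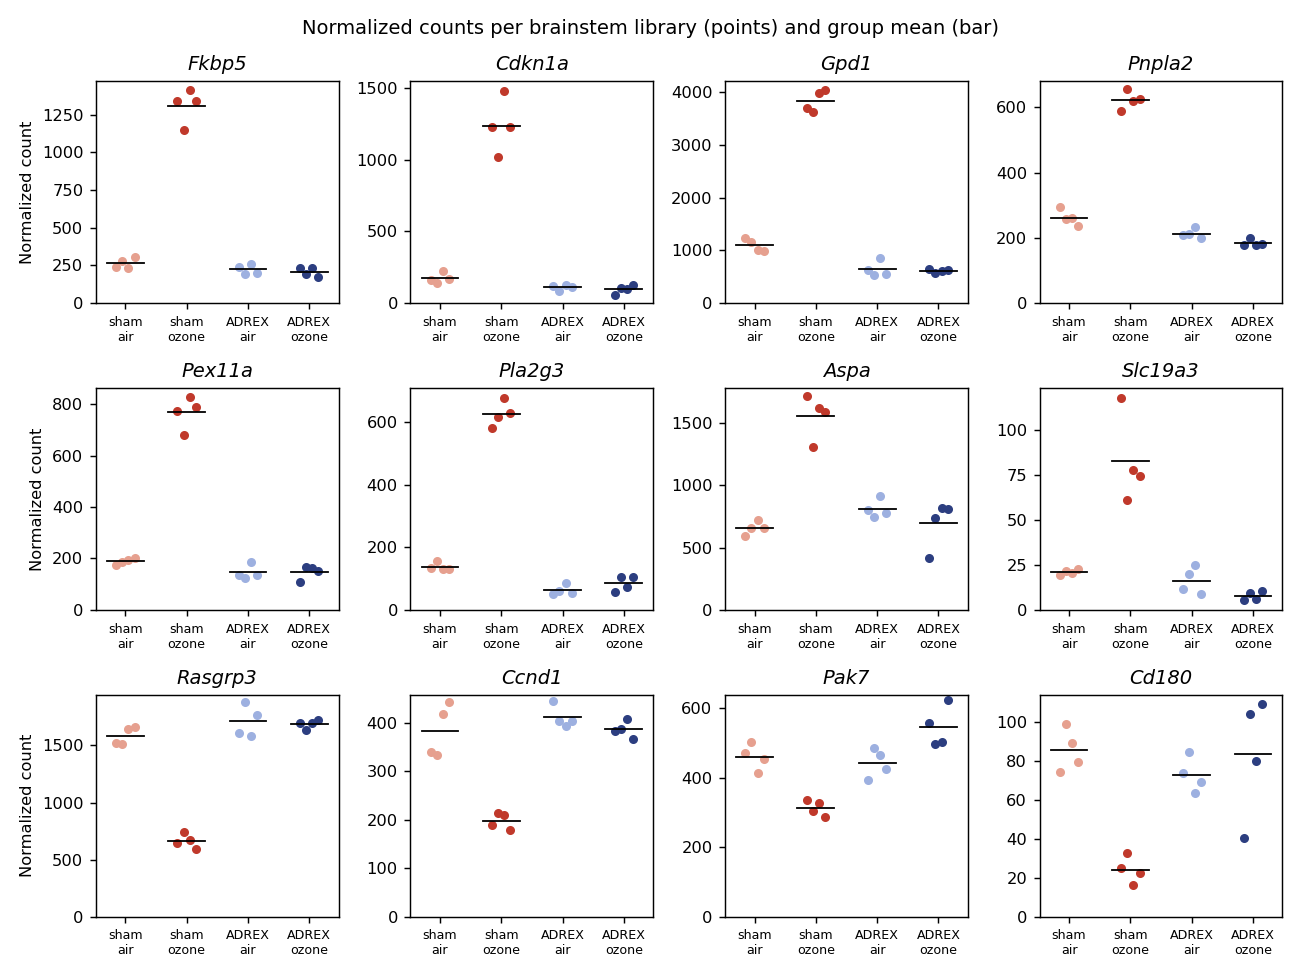
Normalized counts of 12 of the called genes in each of the 16 brainstem libraries (points), with the mean of each group of 4 (bar) and every axis starting at 0. For Fkbp5, Cdkn1a, Gpd1, Pnpla2, Pex11a, Pla2g3, Aspa and Slc19a3 the 4 sham ozone points lie above the other 12, and for Rasgrp3, Ccnd1, Pak7 and Cd180 below them.

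Glucocorticoid-responsive genes, a list of 51, mostly had a lower ozone effect in ADREX than in sham rats. Of the 50 members tested, 6 had a negative interaction that passed (Fkbp5, Cdkn1a, Gpd1, Pla2g3, Aspa and Hif3a), against a background of 0.153%, and 0 had a positive one. The list was drawn up with earlier results of these data known, so neither this count nor the signs are independent evidence of its direction. The interaction was below 0 in 46 of the 50, with a median of -0.72, where the median of all genes was -0.00488. It was -0.59 without ADREX ozone 81 and -0.72 without both libraries that stand apart. The list's median ozone effect was 0.52 in sham and -0.07 in ADREX rats, and its median difference of ADREX from sham in air was -0.27. In sham rats 17 of the 50 rose with ozone (background 0.583%) and 0 fell, and in ADREX rats 0 passed.

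Several listed genes had large sham effects and missed the threshold for the interaction. Zbtb16, a zinc-finger repressor, rose by 2.39 in sham rats on the log2 scale and had an interaction of -2.50 ± 0.51 (limma adjusted p = 0.0569). Of the metallothionein genes, whose products bind zinc, Mt1 rose by 2.06 and Mt2A by 1.90 in sham rats, while the sham effect of Mt3 was 0.26 ± 0.29 (limma adjusted p = 0.9985). The interactions of Mt1 and Mt2A were -1.88 ± 0.46 (limma adjusted p = 0.157) and -1.66 ± 0.36 (0.0820). Arrdc2, an arrestin-domain gene, had an interaction of -1.24 (0.0976), Errfi1, a feedback inhibitor of the EGF receptor, -1.16 (0.117), and Mfsd2a, the transporter of lysophosphatidylcholine at the blood-brain barrier, -1.09 (0.203). These genes were singled out after their values were seen.

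Some well-known glucocorticoid targets had a negative interaction that did not pass. The clock gene Per1 had 160 to 232 normalized counts in sham air, between 216 and 392.3 in sham ozone, 94.4 to 180 in ADREX air and 122 to 159 in ADREX ozone. Its interaction was -0.52 ± 0.30 (limma adjusted p = 0.994). Sgk1, a kinase that regulates ion channels, had 384 to 958 in sham air, 1836, 502, 2155 and 1269 in sham ozone, 218 to 300 in ADREX air and 81.6 to 273 in ADREX ozone. Its lowest sham ozone value was that of the library with the liver transcripts, sham ozone 18, and overlapped sham air. The interaction of Sgk1 was -1.63 ± 0.60 (0.678), -2.08 without sham ozone 18 (0.157), -1.22 without ADREX ozone 81 (0.582) and -1.66 without both (0.0511). Tsc22d3, which encodes the leucine zipper protein GILZ, had an interaction of -0.82 ± 0.40 (0.946). Its lowest value was 577 in ADREX ozone 81, against 1620 to 3138 in the other 15 libraries, and without that library the interaction was -0.38 (limma adjusted p = 0.471). Members of the list with an interaction close to 0 included Arl4d (0.00), Nfil3 (-0.01), Irs2 (-0.01), Ehd3 (-0.01), Rhob (-0.06) and Acsl1 (0.06).

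The receptors themselves did not pass. Nr3c1 had 994 to 1202 normalized counts in sham air, between 812 and 852 in sham ozone, 1067 to 1305 in ADREX air and 732, 1281, 1327 and 1499 in ADREX ozone. Its interaction was 0.47 ± 0.23 (limma adjusted p = 0.957). The lowest value came from ADREX ozone 81, and without that library the interaction was 0.69 (limma adjusted p = 0.0196). Nr3c2 had an interaction of 0.64 ± 0.20 (0.503). Of 15 tested genes of the receptor machinery, which includes heat-shock protein 90, co-activators and the corticosterone-regenerating enzyme Hsd11b1, 0 passed (background 0.201%). Their median interaction was 0.07, and 0.03 without ADREX ozone 81.

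The promoters of the called genes, which the interaction had picked in these same libraries, were searched for the binding letters of the receptor. In a RefSeq table on build GRCr8, 20 of the 29 genes had an entry, 22 entries in all, and the 250 bases before each start were read on both strands. The palindrome of the receptor, GNACA and TGTNC with NNN between them, was found in 0 of the 22 entries and in 0.373% of 33469 entries of the table. At that share a count of 0 in 22 entries is near the background and is no result about these genes. The half-site TGTTCT, or AGAACA on the other strand, was found in 2 of the 22 (9.1%), against 17.5% of all entries, and the palindrome can contain the half-site. The 4 sequences below are those of the genes with the smallest p and the largest fold at high counts, Fkbp5 and Cdkn1a, neither of which holds the half-site in this window, and of the pair that holds it, Fmo2 and Ston1. Each is the 250 bases before the start, 5′ to 3′ on the strand of the gene, with the half-site in capitals. Fkbp5 lies at chr20:6543556-6543805 (minus strand), Cdkn1a at chr20:7150682-7150931 (plus), Fmo2 at chr13:77777535-77777784 (minus, with the half-site 125 bases before the start) and Ston1 at chr6:11615636-11615885 (minus, 190 bases before).
Fkbp5: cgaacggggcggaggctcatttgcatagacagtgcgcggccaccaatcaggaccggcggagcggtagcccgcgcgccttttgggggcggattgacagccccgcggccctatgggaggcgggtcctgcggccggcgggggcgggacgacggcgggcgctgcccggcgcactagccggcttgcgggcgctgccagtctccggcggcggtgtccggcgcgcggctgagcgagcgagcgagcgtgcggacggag
Cdkn1a: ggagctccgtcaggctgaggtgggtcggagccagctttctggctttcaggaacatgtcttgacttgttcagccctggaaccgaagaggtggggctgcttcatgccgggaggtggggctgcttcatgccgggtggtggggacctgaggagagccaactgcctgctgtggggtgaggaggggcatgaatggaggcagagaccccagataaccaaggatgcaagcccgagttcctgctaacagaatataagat
Fmo2: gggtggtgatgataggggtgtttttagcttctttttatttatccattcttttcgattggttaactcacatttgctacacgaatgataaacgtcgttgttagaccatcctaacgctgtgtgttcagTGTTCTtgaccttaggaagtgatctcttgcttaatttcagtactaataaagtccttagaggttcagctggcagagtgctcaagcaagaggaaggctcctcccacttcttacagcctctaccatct
Ston1: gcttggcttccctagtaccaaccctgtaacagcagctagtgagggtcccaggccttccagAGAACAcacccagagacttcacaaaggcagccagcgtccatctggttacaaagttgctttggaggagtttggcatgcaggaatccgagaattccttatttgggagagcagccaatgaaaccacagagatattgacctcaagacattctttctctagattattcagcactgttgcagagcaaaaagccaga
A match is a description of these letters only, and no peak or binding was measured in these rats. Bases outside this window were not searched, so a missing match does not show that a gene lacks a receptor site.

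Of 39 tested genes for lipid storage and fatty acid use, 3 passed (Pnpla2, Gpd1 and Pex11a), all negative, where 0.153% of all genes did. The list had 24 members below 0 and 15 above, and its median interaction of -0.06 turned to 0.01 without ADREX ozone 81. It was chosen with earlier results of these data known. Gpd1, the cytosolic glycerol-3-phosphate dehydrogenase that links glycolysis to glycerolipid synthesis, had 1235, 1156, 1016 and 983 normalized counts in sham air and 3697, 3623, 3995 and 4040 in sham ozone. In ADREX rats it had 621, 539, 856 and 550 in air and 644, 567, 609 and 624 in ozone. Sham ozone lay above all other libraries, and every ADREX library lay below every sham air library. The interaction was -1.86 ± 0.18 (limma adjusted p = 3.12e-05), while the ADREX minus sham difference in air was -0.79 ± 0.13 and missed the threshold (0.0539).

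Pnpla2 encodes adipose triglyceride lipase, the enzyme that starts the breakdown of stored fat. It had 294, 257, 260 and 236 normalized counts in sham air and 590, 657, 620 and 625 in sham ozone. It had 208, 212, 232 and 200 in ADREX air and 178, 201, 178 and 181 in ADREX ozone. Its sham ozone libraries were spread by little, and its interaction was -1.46 ± 0.13 (limma adjusted p = 2.73e-05). A further called feature, LOC100911615, named after its values were seen, stood at 0.765 to 0.773 of the Pnpla2 value in every one of the 16 libraries, so the reads of these features may be shared and LOC100911615 is uncertain as a separate gene.

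Pex11a promotes the division of peroxisomes, which shorten very long fatty acids. It had 175, 186, 193 and 203 normalized counts in sham air, 774, 681, 827 and 787 in sham ozone, 137, 126, 186 and 136 in ADREX air and 110, 168, 161 and 152 in ADREX ozone. The sham effect was 2.01 ± 0.14 and the ADREX effect 0.01 ± 0.14, an interaction of -2.002 ± 0.20 (limma adjusted p = 4.19e-05). Pla2g3, a secreted phospholipase, had 134, 155, 130 and 132 in sham air, 580, 617, 678 and 629 in sham ozone, 51.2, 61.3, 85.2 and 53.03 in ADREX air and 57.9, 106, 73.6 and 105 in ADREX ozone. All 8 ADREX libraries were below all sham air libraries, and Pla2g3 had the largest positive ADREX effect of the 22 negative genes, 0.43 ± 0.19 (limma adjusted p = 0.801). Its interaction was -1.75 ± 0.26 (0.00505). Plin4, a lipid droplet coat protein, rose by 2.09 in sham rats, but its interaction of -1.43 ± 0.51 did not pass (0.656), nor did that of the kinase Pdk4, which restrains pyruvate oxidation (-1.13, 0.505).

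Metabolite transport and conversion supplied 3 further negative genes. Slc19a3 imports thiamine, the vitamin precursor of a cofactor of energy metabolism. It had 19.4, 21.9, 20.7 and 22.9 normalized counts in sham air, 118, 60.9, 77.8 and 74.4 in sham ozone, 11.4, 19.9, 25.0 and 8.66 in ADREX air and 5.61, 9.44, 6.14 and 10.6 in ADREX ozone. Its ADREX ozone mean of 7.95 was the lowest of the 4 groups, with an ADREX effect of -0.88 ± 0.31 (limma adjusted p = 0.801) and an interaction of -2.75 ± 0.44 (0.00803). Fmo2, a flavin-containing monooxygenase, had 26.9 to 42.7 in sham air, 126 to 152 in sham ozone, 14.9 to 42.0 in ADREX air and 12.5 to 22.4 in ADREX ozone. The interaction of Fmo2 was -2.66 ± 0.39 (0.00401).

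Aspa encodes aspartoacylase, which oligodendrocytes use to free acetate from N-acetylaspartate. It had 594, 660, 720 and 655 normalized counts in sham air, 1717, 1310, 1620 and 1587 in sham ozone, 805, 749, 916 and 781 in ADREX air and 413, 738, 820 and 814 in ADREX ozone. Sham ozone was again above the rest, and ADREX ozone 81 was the lowest library. The interaction was -1.51 ± 0.24 (limma adjusted p = 0.00856). Aspa was the only one of 25 tested oligodendrocyte and myelin genes that passed (background 0.201%), and the list's median interaction was 0.08. The myelin gene Opalin had an interaction of 0.57 ± 0.21 (0.656), and the interaction of Mag, a myelin adhesion molecule, was 0.14 ± 0.17 (0.994).

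A further 4 genes with a negative call were Tnfrsf11a, Ptp4a3, Gpatch4 and Pcdh20. Tnfrsf11a, the receptor RANK, had 78.8 to 102 normalized counts in sham air, between 287 and 347 in sham ozone, 75.4 to 117 in ADREX air and 81.6 to 100 in ADREX ozone, with an interaction of -1.81 ± 0.20 (limma adjusted p = 1.23e-04). The phosphatase gene Ptp4a3 had 105 to 150, 243 to 335, 115 to 124 and 89.2 to 103 in the same order of groups, with an interaction of -1.57 ± 0.18 (2.20e-04). Its ADREX ozone libraries all lay below its ADREX air libraries, by 0.29 ± 0.13 on the log2 scale, which did not pass (0.801). Gpatch4, a nuclear G-patch protein, had 270 to 335, 962 to 1042, 172 to 273 and 165 to 282, and its interaction was -1.70 ± 0.22 (0.00102). Pcdh20, a protocadherin of the cell surface, had 224 to 282, 500 to 883, 152 to 205 and 121 to 197, and its interaction was -1.78 ± 0.25 (0.00276). In each of these 4 genes the lowest sham ozone library lay above the highest of the other 12.

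The other negative calls had smaller interactions and are named for completeness, after their values were seen, since the naming rule did not reach them. Mdm1, a centriole protein that binds microtubules, rose from a mean of 394 to 833 normalized counts in sham rats, with an interaction of -1.33 ± 0.20 (limma adjusted p = 0.00569). Lonrf3, a RING finger protein, rose from 130 to 324 (-1.08 ± 0.17, 0.00569), and the endocytic adaptor gene Ston1 from 176 to 326 (-1.32 ± 0.24, 0.0254). The Notch-modifying glycosyltransferase gene Lfng rose from 67.7 to 155 (-1.26 ± 0.24, 0.0369). Prr5, a component of mTOR complex 2, rose from 205 to 353 (-0.87 ± 0.16, 0.0296), the secreted factor gene Fibin from 146 to 302 (-0.97 ± 0.19, 0.0472) and the provisional gene LOC501110 from 123 to 257 (-1.19 ± 0.22, 0.0348). Their means in ADREX ozone were 343 for Mdm1, 136 for Lonrf3, 142 for Ston1, 43.0 for Lfng, 174 for Prr5, 150 for Fibin and 122 for LOC501110. The ozone effect in ADREX rats passed for none of these 7 genes.

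In the opposite direction, 6 genes fell with ozone in sham rats and not detectably in ADREX rats. Rasgrp3, an exchange factor that activates Ras and Rap, had 1523, 1510, 1646 and 1658 normalized counts in sham air and 646, 739, 673 and 593 in sham ozone. It had 1611, 1881, 1581 and 1769 in ADREX air and 1695, 1633, 1694 and 1724 in ADREX ozone. The sham ozone libraries were the lowest of the 16 by a wide margin, and the ADREX effect was -0.02 ± 0.09. The interaction of Rasgrp3 was 1.24 ± 0.12 (limma adjusted p = 3.70e-05), the smallest p of the positive genes.

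Ccnd1 encodes cyclin D1, which drives entry into the cell cycle and is held in check by p21. It had 340, 333, 417 and 444 normalized counts in sham air, 190, 215, 209 and 179 in sham ozone, 445, 403, 393 and 404 in ADREX air and 384, 387, 407 and 368 in ADREX ozone. It fell by 0.94 ± 0.11 on the log2 scale in sham rats, and its interaction was 0.85 ± 0.15 (limma adjusted p = 0.0229). Together with Cdkn1a it was one of 2 genes that passed among 20 tested p53 targets and cell cycle genes, in opposite directions (background 0.201%). The median of that list was -0.06, and 0.01 without both libraries that stand apart.

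The remaining positive genes named by the rule were Pak7, Rffl, Cd180 and Adamts1. Pak7 (now Pak5), a kinase expressed in brain, had 413 to 504 normalized counts in sham air, between 287 and 336 in sham ozone, 394 to 485 in ADREX air and 497 to 622 in ADREX ozone, and its interaction was 0.85 ± 0.15 (limma adjusted p = 0.0211). Rffl, a RING finger ubiquitin ligase, had 898 to 1083, 574 to 748, 821 to 1034 and 1059 to 1178, with an interaction of 0.81 ± 0.15 (0.0254). In both genes ADREX ozone lay above ADREX air in all 4 libraries, an effect of 0.30 ± 0.10 for Pak7 and 0.22 ± 0.10 for Rffl that did not pass (0.801 for both). Cd180, a Toll-like receptor homologue of myeloid cells, had 74.3 to 99.0 in sham air, 16.4 to 32.7 in sham ozone, 63.6 to 84.5 in ADREX air and 40.5 to 109 in ADREX ozone, and its interaction was 1.92 ± 0.37 (0.0443). Adamts1, a secreted protease of the extracellular matrix, had 91.6 to 108, 39.5 to 71.8, 85.3 to 120 and 109 to 135, with an interaction of 1.27 ± 0.25 (0.0472). The lowest ADREX ozone value of Cd180 was in library 81, and the highest sham ozone values of Cd180 and Adamts1 were in library 18.

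Rn50_14_0474.1, a provisional feature outside the naming rule, differed from the other 28. It had 56.0, 86.5, 105 and 101 normalized counts in sham air, 61.1, 38.5, 57.0 and 99.2 in sham ozone, 25.0, 51.3, 31.8 and 22.7 in ADREX air and 165, 86.2, 102 and 91.4 in ADREX ozone. Sham ozone overlapped sham air, while all ADREX ozone libraries lay above all ADREX air libraries. Its sham effect was -0.48 ± 0.30 (limma adjusted p = 0.879), its ADREX effect 1.75 ± 0.30 (0.358) and its interaction 2.23 ± 0.43 (0.0434).

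At the threshold, the first genes outside it were Znf740 (-0.63 ± 0.13, limma adjusted p = 0.0560), Zbtb16, Slc25a13 (-1.23 ± 0.25, 0.0569), Tssc4 (-0.84 ± 0.17, 0.0569) and Jph4 (0.70 ± 0.14, 0.0569). Their values lie next to those of Fibin and Adamts1 (0.0472), so the line between called and uncalled genes is not a natural gap.

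Other gene groups gave few calls or none. Since 0.201% of all genes were called, a count of 0 in lists this short is near the background and is no result about them. Immediate early genes, which mark recent neuronal activity, had 0 of 25 members past the threshold and a median interaction of -0.15, which was -0.10 without ADREX ozone 81 and -0.06 without both libraries that stand apart. Fos had 48.8 to 88.3 normalized counts in sham air, between 29.5 and 51.5 in sham ozone, 53.03 to 76.2 in ADREX air and 47.3 to 55.2 in ADREX ozone, with an interaction of 0.45 ± 0.28 (limma adjusted p = 0.994). Nr4a1, an orphan nuclear receptor induced by activity, had an interaction of -0.34 ± 0.38 (0.994), and of -0.10 without ADREX ozone 81. Circadian clock genes had 0 of 23, with a median of -0.12 that was -0.05 without both libraries. Unfolded-protein-response genes had 0 of 21 and a median of -0.06, and heat-shock genes 0 of 16 and -0.02, which turned to 0.01 without both libraries. NRF2 and antioxidant genes, which respond to oxidative stress, had 0 of 24, and their median of -0.07 turned to 0.04 without ADREX ozone 81 and 0.07 without both. Hmox1, the heme-degrading enzyme among them, had an interaction of -0.15 ± 0.23 (0.994), -0.04 without ADREX ozone 81, -0.05 without sham ozone 18 and 0.06 without both. HIF target genes had 1 of 23, Hif3a, and a median of -0.11, which was -0.01 without ADREX ozone 81.

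Catecholamine genes mark the noradrenergic and adrenergic cell groups of the brainstem. Of 17 tested, 0 passed, where 0.201% of all genes did, and the sign of their median interaction turned with the library ADREX ozone 81: it was -0.08 with all libraries, 0.10 without that library and 0.09 without both libraries that stand apart. Th, the first enzyme of catecholamine synthesis, had 120 to 154 normalized counts in sham air, between 126 and 182 in sham ozone, 126 to 160 in ADREX air and 126 to 150 in ADREX ozone, and its interaction was -0.24 ± 0.18 (limma adjusted p = 0.994). Dbh, which makes noradrenaline, ranged from 96.7 to 224 over the 16 libraries, and its interaction was -0.28 ± 0.27 (0.994). Neuron markers had 0 of 24 past the threshold, with a median of -0.11 that was -0.05 without ADREX ozone 81. Receptor genes for glutamate, GABA and glycine had 0 of 34, with medians of -0.04 and 0.03, and astrocyte markers 0 of 16, with medians of -4.49e-05 and -0.05, in the same order.

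**Figure D3:**
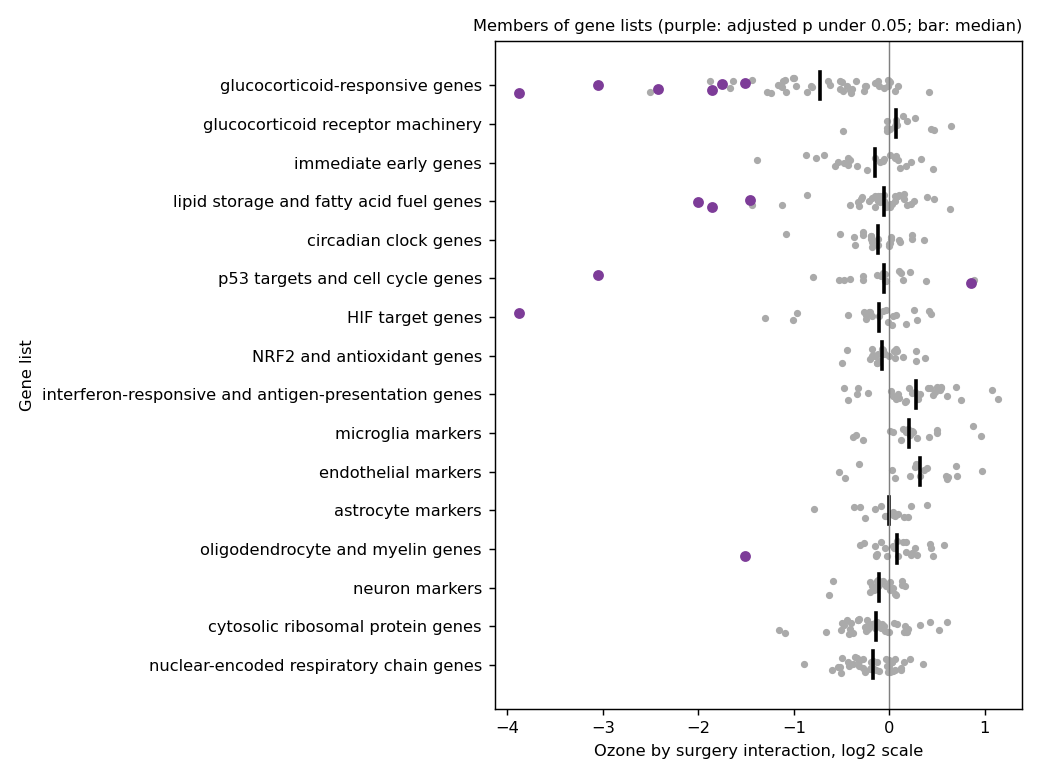
Interaction on the log2 scale (horizontal axis) of every tested member of 16 gene lists (rows). Purple points passed at an adjusted p under 0.05, grey points did not, and the black bar is the median of the list. The glucocorticoid-responsive genes have a median of -0.72 and 46 of 50 members below 0, while the medians of the other lists shown lie between -0.17 and 0.32, all with the 16 libraries. The glucocorticoid list was drawn up with earlier results of these data known, so its median and signs are not independent evidence.

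Markers of vessel and microglial cells and interferon-responsive genes had mostly positive interactions, and 0 of them passed (background 0.201%). Endothelial markers had 14 of 17 interactions above 0, a median of 0.32 and 0 calls, with the largest for the VEGF receptor gene Kdr (0.97 ± 0.25, limma adjusted p = 0.219) and the angiopoietin co-receptor gene Tie1 (0.71 ± 0.17, 0.157). The thyroid hormone and organic anion transporter gene of brain vessels Slco1c1 fell in sham rats by 1.04 on the log2 scale, with an interaction of 0.70 ± 0.17 (0.147). Over 18 endothelial markers the summed level was 6834 to 8480 normalized counts in sham ozone, against 9107 to 9764 in sham air, 9233 to 10710 in ADREX air and 8868 to 10130 in ADREX ozone, so sham ozone lay below the other groups. Abundant genes weigh most in that sum, such as Itm2a (mean 2307 in sham air, 1854 in sham ozone) and Slco1a4 (1334, 853). The median sham effect of the 17 tested was -0.32, and 3 passed as lower (background 0.396%). Not all fell: the sham effect was 0.03 for Cldn5, -0.01 for Vwf, 0.23 for Abcg2 and 0.28 for Erg. The 19 microglia markers summed to 2161 to 2502 in sham ozone, below 2585 to 2710 in sham air, 2695 to 2930 in ADREX air and 2805 to 2989 in ADREX ozone. Interferon-responsive and antigen-presentation genes had 25 of 30 interactions above 0, a median of 0.28 and 0 calls, and microglia markers 15 of 18, 0.20 and 0. Inflammatory and acute-phase genes had 1 call, Cd180, and 11 of 20 interactions below 0, with a median of -0.13 that turned to 0.06 without ADREX ozone 81 and 0.27 without both libraries that stand apart. These marker sums move with the positive genes Cd180, Adamts1 and Ccnd1 in sham ozone, and their part in those results was not tested.

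Transcripts of other tissues varied within groups. The 21 liver transcripts summed to 1230 to 11450 normalized counts in sham air, between 366 and 32640 in sham ozone, 340 to 7894 in ADREX air and 775 to 8824 in ADREX ozone, with a median interaction of 2.06 and 0 of 21 past the threshold. The liver median was 4.44 without both libraries that stand apart. Red blood cell transcripts had a median interaction of -1.87 over 5 tested members with 0 calls, and choroid plexus markers of -0.51 over 12 with 0 calls. The red blood cell median was -2.59 without ADREX ozone 81 and -2.75 without both libraries. The choroid plexus median was -0.24 without ADREX ozone 81 and -0.15 without both. Group ranges overlapped for the liver and choroid plexus sums. Red blood cell transcripts summed to 1001 to 1917 in sham air and 1053 to 5648 in sham ozone. In ADREX air they summed to 162.3 to 2444. In ADREX ozone the sum was 1419 in library 81, but 542.9, 106 and 82.85 in libraries 82, 83 and 84. For all 22 negative genes the sham ozone libraries lay above the other 12. Picking genes by the interaction in the same libraries favours this, so it is no evidence about transcripts of other tissues. The part of the transcripts of other tissues in the called genes was not tested.

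The same contrast was computed in the 16 hypothalamus libraries, which the brainstem fit did not use, although the labels leave unsaid whether some came from the same rats. Limma called 20 of 14483 genes there (0.138%), 17 negative and 3 positive, and 37 when hypothalamus sham ozone 18 was left out. All 29 brainstem genes were tested in the hypothalamus, 28 had the same sign, and 14 were called in the same direction. These 14 are 48.3% of the brainstem calls and 70% of the hypothalamus calls. They were Fkbp5, Pnpla2, LOC100911615, Cdkn1a, Gpd1, Rasgrp3, Pex11a, Tnfrsf11a, Gpatch4, Pla2g3, Lonrf3, Aspa, Ccnd1 and Ston1. The 22 negative brainstem genes had a median of -1.64 in brainstem and -1.54 in hypothalamus, and the 7 positive genes 1.24 and 0.67. All 20 hypothalamus calls had the same sign in brainstem, including Plin4 (-3.25 in hypothalamus, limma adjusted p = 0.00406, and -1.43 in brainstem), Svil, an actin-binding protein (-0.96 and -0.62), and Opalin (0.71 and 0.57). The share of all genes tested with the same sign in both tissues was not computed, so the sign counts have no background beside them.

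Whether a gene differed between the tissues was tested directly, as the brainstem interaction minus the hypothalamus interaction. No gene passed, 0 of 14533, with 187 at an unadjusted p under 0.05 for limma, where 726.65 would be expected if no gene differed. With edgeR (195 unadjusted) and DESeq2 (173 unadjusted) the count was also 0. The unadjusted counts were below the expected number, so the 0 calls do not show that the interaction was equal in the tissues. The smallest p values belonged to Hist1h2bk (1.92), Pcdh20 (-1.16), Susd5 (1.92), Pusl1 (1.39) and LOC100364027 (-1.65), each with a limma adjusted p of 0.9999. For Pcdh20 the interaction was -1.78 in brainstem and -0.62 in hypothalamus, where sham ozone libraries had 596 to 766 normalized counts and sham air libraries 411 to 454. For Cdkn1a the difference between tissues was -0.94 (95% interval -1.72 to -0.16 for this gene alone, adjusted p = 0.9999), with sham ozone values of 904 to 1110 in hypothalamus. For Pla2g3 it was 1.21 (0.18 to 2.23), with hypothalamus values of 292 to 399 in sham ozone against 8.83 to 39.4 in the 8 ADREX libraries. The interval for Fkbp5 ran from -0.73 to 0.42. Rn50_14_0474.1, the exception in sign, had an interaction of -0.35 ± 0.63 in hypothalamus and a range of 26.5 to 113 over all 16 libraries.

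**Figure D4:**
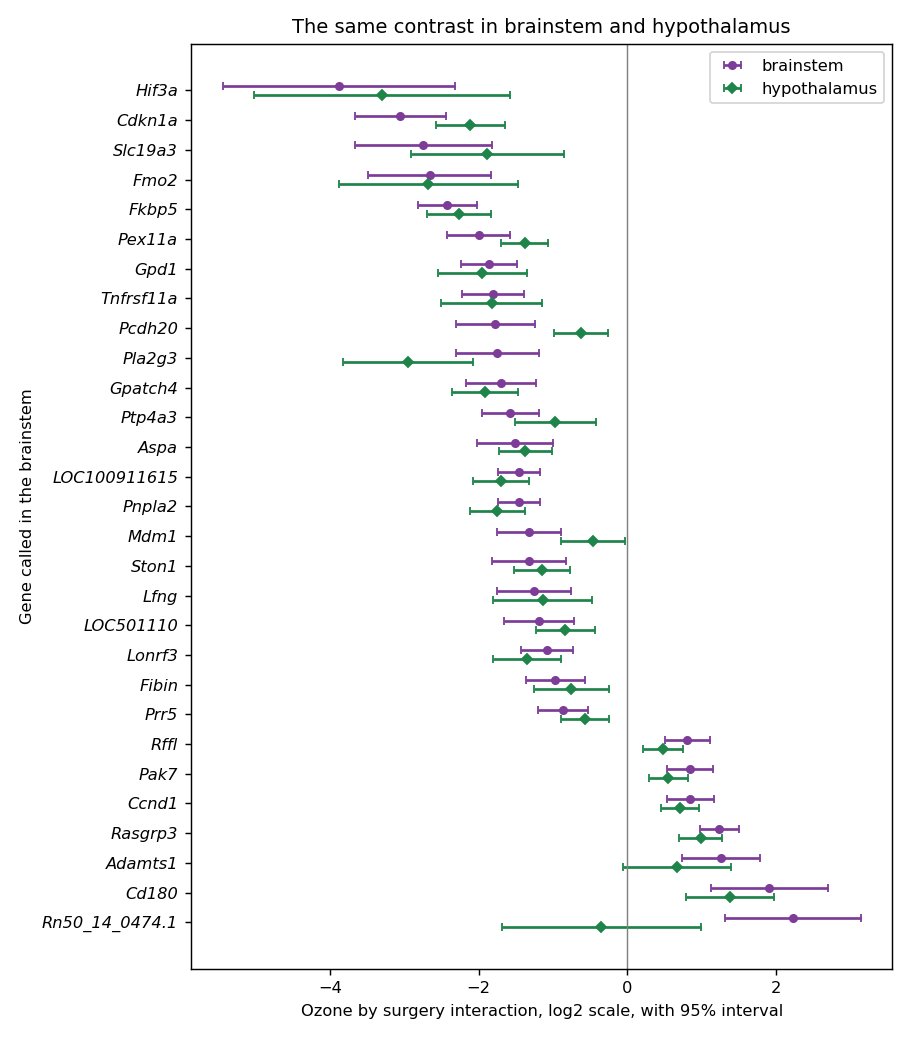
Ozone by surgery interaction with its 95% interval, on the log2 scale, of the 29 genes called in brainstem, in the brainstem (circles) and in the hypothalamus (diamonds). Of the 29 genes, 28 have the same sign in both tissues, and the exception is Rn50_14_0474.1 at the bottom.

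The calls differed in how far they depended on single libraries. The 17 genes with the smallest p, from Fkbp5 to Aspa, passed in all 16 fits that left out 1 library and under every other setting in which they were tested. The other 12 lost their call when at least 1 library was left out, and each of the 16 libraries cost at least 1 of them its call. Those 12 were Pak7 (lost in 6 fits, limma adjusted p up to 0.0722), Ccnd1 (8, 0.0762), Rffl (10, 0.0771), Ston1 (8, 0.0820), Prr5 (13, 0.0891), LOC501110 (12, 0.103), Lfng (12, 0.113), Hif3a (12, 0.127), Rn50_14_0474.1 (12, 0.113), Cd180 (14, 0.114), Fibin (14, 0.144) and Adamts1 (15, 0.127). The number of calls fell to 18 when sham air 4, sham ozone 17 or 20, or ADREX air 68 was left out, and to 19 without sham ozone 19, ADREX air 65 or ADREX ozone 83. It rose to 47 without ADREX ozone 81, of which 28 were among the 29. Without both ADREX ozone 81 and sham ozone 18 it was 58, 37 negative and 21 positive, of which 26 were among the 29.

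**Figure D5:**
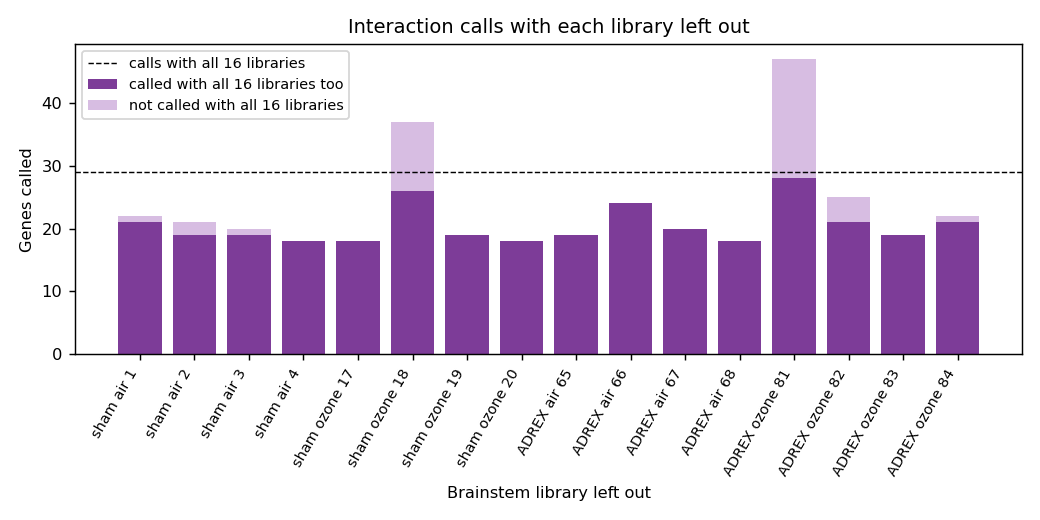
Number of genes called for the interaction when each brainstem library (horizontal axis) was left out. Dark bars count genes also called with all 16 libraries, light bars other genes, and the dashed line marks the 29 calls with all libraries. Leaving out ADREX ozone 81 gave 47 calls, and 4 libraries gave 18 each when left out.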

How the data were processed

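Messenger RNA libraries of brainstem and hypothalamus were grouped by their labels into 8 groups of 4. The authors deposited 1 table with 22587 genes and 32 libraries, whose values are a normalized signal (read counts scaled per library). Per the submitters' processing notes the work used Partek, DESeq2 and build rn6, with no role or version stated. The sources used here do not give the aligner, the annotation or how strand and reads shared by near-identical genes were counted. Within each library 100% of values were whole multiples of 1 step (0.623 to 1.25) within 0.001, which gave back whole reads for edgeR 4.0.16 and DESeq2 1.42.0 as alternatives. On those reads edgeR called 26 and DESeq2 75 genes for the brainstem interaction. DESeq2 left 1121 adjusted p-values there as NA.

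For the main test limma 3.58.1 (R 4.3.3, a mean-dependent prior variance) was fitted to log2(value + 1) over 4 group means and 16 libraries, or 8 and 32 for the tissue difference. Genes with a mean of 10 or more were tested (LOC100909648 at 10.0001 just inside, Cdc20 at 9.998 just outside), with Benjamini-Hochberg adjustment over all of them. No replicate pair agreed within sampling noise, the lowest chi-square per degree of freedom being 2.842. The scripts were tested on simulated data.

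Genes were named by a rule: the 12 most negative and 12 most positive calls with a group mean of 50 or more and no provisional symbol, up to 3 calls of each of 34 gene lists, and a panel of 11 genes. The members and the lists were chosen with earlier results of these data known. The RefSeq table belongs to another assembly, GRCr8, and was used for promoter sequences alone. The alternatives tried were a pseudocount of 0.5 or 5, a minimum mean of 0 or 50, scaling by median ratios or by quantiles, weights per library, edgeR, DESeq2, a replicate block between tissues and each library left out.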

Additional observations from a re-analysis of the deposited data

Results flagged for a closer look

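Among 156 groups of 4 libraries (39 genes), 12 had 1 library far from the other 3, where chance gives 1 in 20, or 7.8. In ADREX ozone, library 81 was low for Sgk1 (81.6 normalized counts, others 245 to 273) and for Tsc22d3 (577, others 1941 to 1962), and library 82 was high for Pnpla2 (201) and LOC100911615 (153). In ADREX air, library 65 was low for Rffl (821) and high for Fos (76.2), library 66 was low for Th (126) and library 67 high for Fibin (182). In sham air, library 1 was low for Prr5 (181) and Nr3c1 (994), library 2 high for Pla2g3 (155) and library 3 low for Gpatch4 (270). None of the 12 was in sham ozone.

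The interaction passed the threshold for 29 of 14408 genes tested, and 12 of the 29 lost their call when at least 1 library was left out. LOC100911615 may share its reads with Pnpla2. On the log2 scale the interaction was -2.42 for Fkbp5, -1.46 for Pnpla2, -1.46 for LOC100911615, -3.06 for Cdkn1a, -1.86 for Gpd1, -2.0 for Pex11a, -1.81 for Tnfrsf11a, -1.57 for Ptp4a3, -1.70 for Gpatch4, -1.78 for Pcdh20 and -2.66 for Fmo2. It was -1.75 for Pla2g3, -1.33 for Mdm1, -1.08 for Lonrf3, -2.75 for Slc19a3, -1.51 for Aspa, -1.32 for Ston1, -0.87 for Prr5, -1.19 for LOC501110, -1.26 for Lfng, -3.88 for Hif3a and -0.97 for Fibin. It was 1.24 for Rasgrp3, 0.85 for Pak7, 0.85 for Ccnd1, 0.81 for Rffl, 2.23 for Rn50_14_0474.1, 1.92 for Cd180 and 1.27 for Adamts1.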

How the results depend on the processing

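With sample weights the brainstem interaction gave 94 calls (36 positive and 58 negative), sham ozone 496 and the hypothalamus interaction 90. With DESeq2 these were 75 (29 positive and 46 negative), 237 and 53, and ozone in ADREX rats gave 1. An alternative added after seeing the data left out both libraries that stand apart and gave 58 interaction calls, 293 in sham rats and 0 in ADREX rats. The cause of these changes was not tested. Leaving out 1 library gave 18 to 47 calls for the brainstem interaction, 73 to 272 in sham rats, 0 in ADREX rats, 15 to 37 for the hypothalamus interaction (37 without hypothalamus sham ozone 18) and 0 for the tissue difference. Pseudocounts, filters, both rescalings and edgeR gave 23 to 32 interaction calls. Of 1012 alternative values for the genes named by the rule, the panel and the other calls, 857 kept their direction and side of the threshold, 151 lost and 3 gained it, and 1 changed sign (Hmox1, to 0.0619). The median of all genes moved by less than 0.1 under each rescaling.

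Replicate numbers are shared between tissues but not between brainstem groups, so no block could be fitted within brainstem. Same-numbered libraries did not deviate together throughout (7 of 16 correlations over 0.1, range -0.531 to 0.612, and 4 of 16 best with their own number), so the numbers are not taken as pairs. With the replicate block the tissue difference gave 0 calls (176 at an unadjusted p under 0.05).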
